A study of Arabidopsis thaliana with 2 samples.

Results

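The 88 probe sets described here had at least 4-fold more signal in young leaves of the BOUNTIFUL line than in leaves of wild-type Ws-0. They were chosen by the measured values themselves, from 22746 Arabidopsis probe sets on the Affymetrix ATH1 array. A probe set, a small group of probes for 1 transcript, entered when its mean signal over both arrays was at least 39.9 units and its log2 ratio of BOUNTIFUL over Ws-0 was at least 2. The log2 ratio was taken after adding 7.77 units to both signals, which understates the difference of low signals. Of 11373 probe sets with enough signal, 100 met the limit (percent called 0.879), and 12 of them, SBT4.12, RALFL32, CSLA01, XTH32, LCR69, PDF1.2b, LTI30, AT1G06000, AT4G22212, AT4G23680, AT4G23820 and AT5G44400, were left out by name. Because the BOUNTIFUL to Ws-0 contrast chose the members, their ratios are a description and were not tested.

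RNA came from a pool of the 4 youngest rosette leaves at developmental stage 6.50, from plants kept in a glasshouse on compost at 23 °C under days of 16 h light. BOUNTIFUL carries an activation tag of the I/dSpm type at the BOU locus in the Ws-0 background, and the labels give no insert for Ws-0. Each genotype was read on 1 array, so no value has a replicate check and every difference is between 2 RNA samples. In whole leaves, fewer cells of a type and less RNA per cell cannot be told apart.

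An activation tag carries an enhancer that can raise transcription of genes near the place of insertion, and such lines can show a gain of function. Young leaves can still hold dividing and expanding cells. Whether the pooled leaves held such cells was not measured. Dividing cells make the replication-dependent histones that package new DNA during S phase, while expanding cells secrete wall proteins, lipid transfer proteins and enzymes into the apoplast, the space outside the plasma membrane. The leaf label was checked against leaf markers, of which 5 of 11 had a named probe set and signals of 158 to 4492 units in Ws-0 and 261 to 3729 units in BOUNTIFUL. Of 17 markers of flower, pollen, root, seed and meristem, 5 had a named probe set. Their summed signal was 68.9 units in Ws-0 and 104 units in BOUNTIFUL. The floral gene UFO and the pollen actin gene ACT12 lay under 7 units on both arrays. Of the 3 root genes, the beta-glucosidase gene BGLU23 had 13.6 units in Ws-0 and 56.5 in BOUNTIFUL, while the expansin genes EXPA7 and EXPA18 had 21.7 and 25.0 units in Ws-0 and 17.5 and 26.1 in BOUNTIFUL. The higher sum in BOUNTIFUL was thus that of BGLU23. The part of other tissues in the results was not tested.

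Among the 88 members the BOUNTIFUL signal ran from 75.6 to 2016 units with a median of 324 units, and the Ws-0 signal from 0.98 to 402 units with a median of 39.9 units. The median of all passing probe sets was 112 units in BOUNTIFUL compared with 118 in Ws-0. Ranked within each array, which does not depend on scaling by a factor, the members had a median position at the 90.8th percentile in BOUNTIFUL and the 50.6th percentile in Ws-0. The rule chose members for more signal in BOUNTIFUL, so the higher position there follows from the choice. The members' log2 ratios had a median of 2.48 and reached 6.07, while all passing probe sets had a median of -0.06. A difference of at least 8-fold was present for 24 members, and 2 of these exceeded 16-fold.

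**Figure D1:**
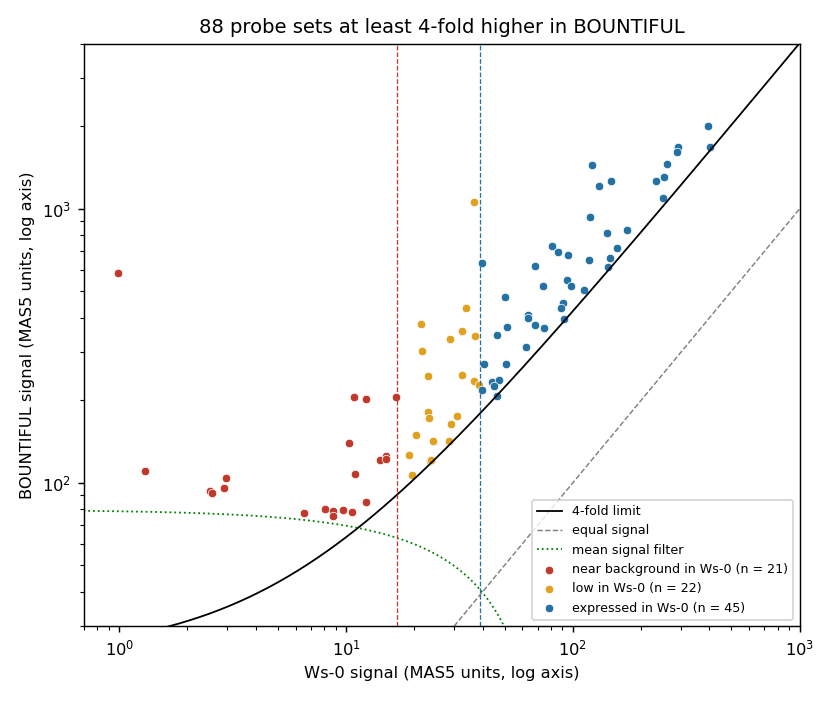
Signal of the 88 members on the Ws-0 array (x axis) and the BOUNTIFUL array (y axis), both in MAS5 units on log axes, 1 point per probe set. The solid curve is the 4-fold limit after the pseudocount, the dotted curve the mean signal filter, and the vertical dashed lines mark the background limit of 16.7 units and the Ws-0 median of 39.0 units. The 21 members near background, 22 low members and 45 expressed members lie above both curves.

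The members close to the limit show how narrow the choice was. Probe set 261907_at, just inside, had 208 units in BOUNTIFUL compared with 46.1 in Ws-0, and the glycine-rich protein gene AT4G29020 had 397 and 91.5 units. Just outside, AT5G13140 had 226 and 50.8 units, and the defensin gene PDF1.2 had 242 and 54.8 units. On the side of the signal filter, a further probe set of the member gene AT1G31690 missed the filter with a mean signal of 39.8 units.

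Members were divided by their Ws-0 signal into 3 levels. Near background meant at most 16.7 units, the highest Ws-0 signal among 27 controls for genes of Bacillus subtilis, which have no target in leaf RNA. Low meant above that and under the Ws-0 median of 39.0 units, and expressed meant at or above that median. By this division 21 members (23.9%) were near background in Ws-0, 22 (25.0%) were low and 45 (51.1%) were already expressed. By the same division 10942 of all 11373 passing probe sets were expressed. The counts rest on the signal filter: without it 33 further probe sets met the 4-fold limit, all of them near background in Ws-0, which gave 54, 22 and 45. Signals of different probe sets are not on a common scale, so these levels say how each probe set was read and do not rank transcripts by abundance.

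In BOUNTIFUL, members near background had 75.6 to 581 units, with a median of 104 units. The low members had 107 to 1061 units, with a median of 205 units. Expressed members had 208 to 2016 units, with a median of 616 units, and held 11 of the 12 members with at least 1000 units in BOUNTIFUL. All 21 members near background had to differ by the rule's own construction, since a probe set with so low a Ws-0 signal passes the filter only with at least 63.1 units in BOUNTIFUL. Of the 30 passing probe sets near background in Ws-0, 80.0% were at least 4-fold higher, against 5.74% of 401 low and 0.484% of 10942 expressed ones, and no reading is taken from this order.

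For members near background the Ws-0 value gives only a bound. Set against the background limit in place of their own signal, their BOUNTIFUL signals were at least 4.51-fold to at least 34.7-fold higher. These and the later bounds rest on the limit of the Ws-0 array, 16.7 units. The same controls reached 21.9 units on the BOUNTIFUL array, and with that limit every bound would be lower. The log2 ratios of this level moved most with the pseudocount. With none they had a median of 3.57 and reached 9.21, and with a pseudocount at the 40th percentile of all signals, 24.8 units, the median was 1.92. In expressed members the same medians were 2.47 and 2.26, and 33 of the 45 stayed at least 4-fold higher with the larger pseudocount, against 12 of 22 low members and 10 of 21 near background.

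**Figure D2:**
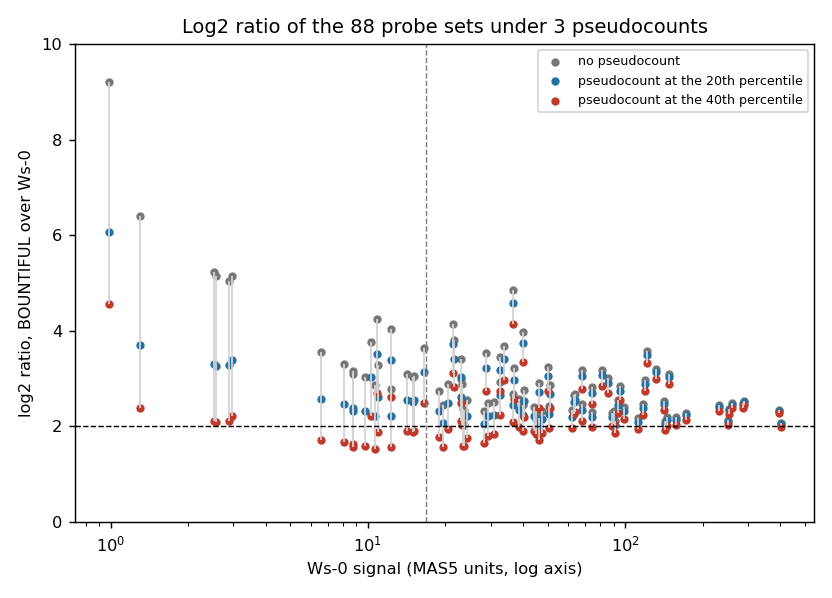
Log2 ratio of BOUNTIFUL over Ws-0 (y axis) against the Ws-0 signal in MAS5 units (x axis, log scale) for the 88 members, with no pseudocount, a pseudocount of 7.77 units and one of 24.8 units joined by a line for each probe set. The horizontal dashed line is the 4-fold limit and the vertical one the background limit of 16.7 units. The 3 values of a member lie far apart at low Ws-0 signals and nearly coincide above 100 units.

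The annotation used here gave 1 gene for 23 of the 88 members (26.1%), several genes for 7 and none for 58 (65.9%). Among all passing probe sets 53.0% had 1 gene and 45.0% were not listed, so most of the members are known by probe set alone. The symbols and synonyms come from the gene table. Protein families of loci without a symbol are given as general background on the Arabidopsis genome and are not in the tables used.

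Histone H3.1 is the replication-dependent form of histone H3, deposited on DNA as it is copied. The annotation assigns 3 members to the same 5 loci, AT1G09200, AT5G65360, AT5G10400, AT5G10390 and AT3G27360, which the gene table lists as H3.1. No reading can be given to any 1 of these loci. Probe set 247192_at had 1061 units in BOUNTIFUL compared with 36.7 in Ws-0 (log2 ratio 4.59), the largest difference among members with any annotation. Probe set 264262_at had 379 units against 21.4 (log2 ratio 3.73). Probe set 250434_at had 345 units against 37.1 (log2 ratio 2.97). All 3 were low in Ws-0, above the background limit but under the array median. The other 2 probe sets with this annotation, 250433_at and 257714_at, lay within the range of the controls on both arrays, with 10.4 and 11.8 units in BOUNTIFUL and 2.61 and 4.02 in Ws-0. Probe sets that share loci are not independent readings.

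Other histones of the array were set beside H3.1 after its values were seen. They were H3.3, H4, H2B, the centromeric H3 and H1, while histone H2A was not looked at. Histone H3.3 is the replacement form, deposited outside replication, and its 3 probe sets, which share 3 loci, had 1025 to 1837 units in BOUNTIFUL and 1089 to 2081 in Ws-0. Their log2 ratios were -0.49, -0.18 and -0.09 on the deposited scale. Transcripts added to the hybridisation mix, called spikes, are read by a newer and an older set of 9 control probe sets each, whose mean log2 ratios were -0.35 and -0.55. Setting the newer spikes equal on both arrays put 2 of the 3 H3.3 log2 ratios above 0 and the older put all 3, none by as much as 2-fold. Histone H4, represented by probe sets that share 8 loci, had 4 passing probe sets with log2 ratios of 0.58 to 1.80. Of these, 3 were at least 2-fold higher, where 4.63% of all passing probe sets were, and 4 with the older spikes. The H4 probe set 247692_s_at had 1184 units in BOUNTIFUL compared with 334 in Ws-0. Setting spikes equal also moved the median log2 ratio of all passing probe sets, to 0.27 (newer) and 0.45 (older). The share of them at least 2-fold higher was not counted on those scales, so no reading is taken from larger counts there.

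Histone H2B was represented by HTB1, with 261 units against 134, and HTB4, with 272 against 149, which gave log2 ratios of 0.92 and 0.84. Both were above 0 under the 5 scalings tried. They were at least 2-fold higher with either set of spikes set equal, which raised the median of all passing probe sets as well. HTB2 had a log2 ratio of 1.29 and HTR12, the centromeric histone H3 gene, 1.26, each with a mean signal under the filter. HTR12 was near background in Ws-0 at 6.37 units. HTB11, also under the filter, had 15.5 units against 11.8 (log2 ratio 0.25), in the range of the controls on both arrays. The linker histone gene HIS1-3, known as a drought-inducible H1 variant, went the other way, with 42.0 units in BOUNTIFUL compared with 148 in Ws-0 (log2 ratio -1.65). HON4, annotated among the linker histones, had -0.13, which was above 0 with either set of spikes set equal. On the deposited scale the passing H4 and H2B probe sets thus had log2 ratios above 0, and those for H3.3 and H1 below 0. The 3 passing H3.1 probe sets entered only with a log2 ratio of at least 2, so the rule fixed their direction.

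**Figure D3:**
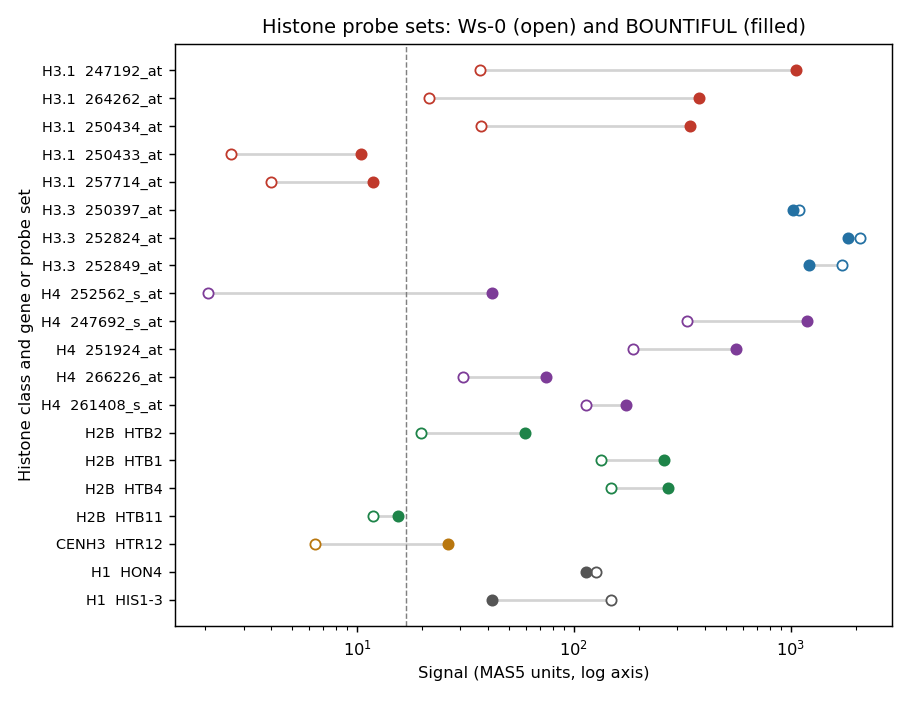
Signal in MAS5 units (x axis, log scale) of histone probe sets on the Ws-0 array (open points) and the BOUNTIFUL array (filled points), 1 line per gene or probe set and coloured by histone class. The dashed line is the background limit of 16.7 units. The 3 bright H3.1 probe sets lie at 21.4 to 37.1 units in Ws-0 and 345 to 1061 units in BOUNTIFUL, while the H3.3 probe sets stay above 1000 units on both arrays.

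Of the 23 named genes, 4 were placed in the lipid transfer protein family. It includes small secreted cysteine-rich proteins that bind lipids in the apoplast, and whether these 4 genes encode such proteins was not examined. The 4 genes were grouped from general background after their values were seen, as were the groups that follow. How many genes of the family passed the filter was not counted. All 4 were already expressed in Ws-0. AT2G10940 had 1463 units in BOUNTIFUL compared with 261 in Ws-0 (log2 ratio 2.45). AT5G05960 had 650 units against 118 (log2 ratio 2.39). AT3G53980 had 346 units against 46.3 (log2 ratio 2.71), and AT3G18280 had 507 against 112 (log2 ratio 2.10).

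Proteins of the wall and the cell surface made up 5 further genes, spread over all 3 levels. AT4G16980, of an arabinogalactan protein family, had 1682 units in BOUNTIFUL compared with 402 in Ws-0 (log2 ratio 2.04). Its other probe set, 245459_at, had 25.2 and 12.7 units (log2 ratio 0.68) at a mean signal under the filter, so its probe sets did not give the same ratio. AT5G11420, of the DUF642 family of wall-associated proteins, had 665 units against 146 (log2 ratio 2.13). TBL36, of a family in which some members add acetyl groups to wall polysaccharides, was low in Ws-0 with 23.0 units and had 182 in BOUNTIFUL. AT4G25780, of the CAP family of secreted proteins that includes the pathogenesis-related protein PR-1, had 247 units against 32.6 (log2 ratio 2.66). AT5G42860, of the companion of cellulose synthase family, was near background in Ws-0 at 2.95 units and had 104 units in BOUNTIFUL, which makes it at least 6.23-fold higher.

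Among enzymes and transporters, AT1G54020, a GDSL-type esterase or lipase gene, had 435 units in BOUNTIFUL compared with 33.8 in Ws-0. Its log2 ratio of 3.41 was the highest of the 23 named genes. The copper amine oxidase gene AT1G31690, whose family oxidises polyamines and releases hydrogen peroxide, had 358 units against 32.6 (log2 ratio 3.18). Its other probe set, 246573_at, which the rule did not use, had 77.0 units in BOUNTIFUL compared with 2.66 in Ws-0 (log2 ratio 3.02). That Ws-0 signal is near background, so this probe set was at least 4.60-fold higher. Both probe sets of the gene were thus over 4-fold higher in BOUNTIFUL, in the same pair of RNA samples.

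Sugar handling was represented by 2 genes at different levels. AT3G05400, a sugar transporter gene of the ERD6-like family, had 207 units in BOUNTIFUL compared with 16.6 in Ws-0, just inside the near background level, and was at least 12.3-fold higher. AT1G62660, which encodes a vacuolar invertase that splits sucrose into glucose and fructose, was expressed in Ws-0 with 88.9 units and had 435 in BOUNTIFUL (log2 ratio 2.20). AT1G04040, of an acid phosphatase family related to vegetative storage proteins, had 815 units against 141 (log2 ratio 2.46).

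Genes of redox and stress responses numbered 4. MSRB9, a methionine sulfoxide reductase that repairs oxidised methionine, was low in Ws-0 at 23.3 units and had 173 in BOUNTIFUL (log2 ratio 2.54). AT2G29500, a small heat shock protein gene, was near background in Ws-0 at 14.2 units and had 121 in BOUNTIFUL, at least 7.24-fold higher. AT2G42220, of the rhodanese family of sulfur transferases, and AT5G22580, with a stress-responsive A/B barrel domain, were expressed in Ws-0. They had 616 units against 143 and 218 against 39.9, log2 ratios of 2.05 and 2.24.

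The remaining 5 named genes were MPC, AT4G29020, AT1G05210, AT3G61920 and AT5G54970. MPC, named for a protein like the end of poly(A)-binding protein and known as a maternally expressed gene of the endosperm, had 245 units in BOUNTIFUL and 22.9 in these leaves of Ws-0 (log2 ratio 3.04). AT1G05210, of a transmembrane protein family, was near background at 8.77 units and had 75.6 in BOUNTIFUL, at least 4.51-fold higher. No role is given for AT3G61920, with 229 units against 38.6, or AT5G54970, with 227 against 44.9.

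Apart from histone H3.1, 4 members were each assigned to a pair of loci. Probe set 246379_s_at, for AT1G57860 and AT1G57660, genes of the ribosomal protein L21, had 1310 units in BOUNTIFUL compared with 253 in Ws-0 (log2 ratio 2.34). Probe set 262661_s_at, for AT1G14250 and AT1G14230 of the nucleoside phosphatase family, had 476 units against 50.1 (log2 ratio 3.06). Near background in Ws-0 were 249195_s_at, for the dirigent protein genes AT5G42510 and AT5G42500, with 95.8 units against 2.89, and 248943_s_at, for AT5G45490 and AT5G45440, with 77.6 against 6.54. Their BOUNTIFUL signals were at least 5.72-fold and at least 4.63-fold higher. A suffix that marks possible cross-hybridisation was carried by 7 of the 88 members (7.95%) and by 3.46% of all passing probe sets.

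**Figure D4:**
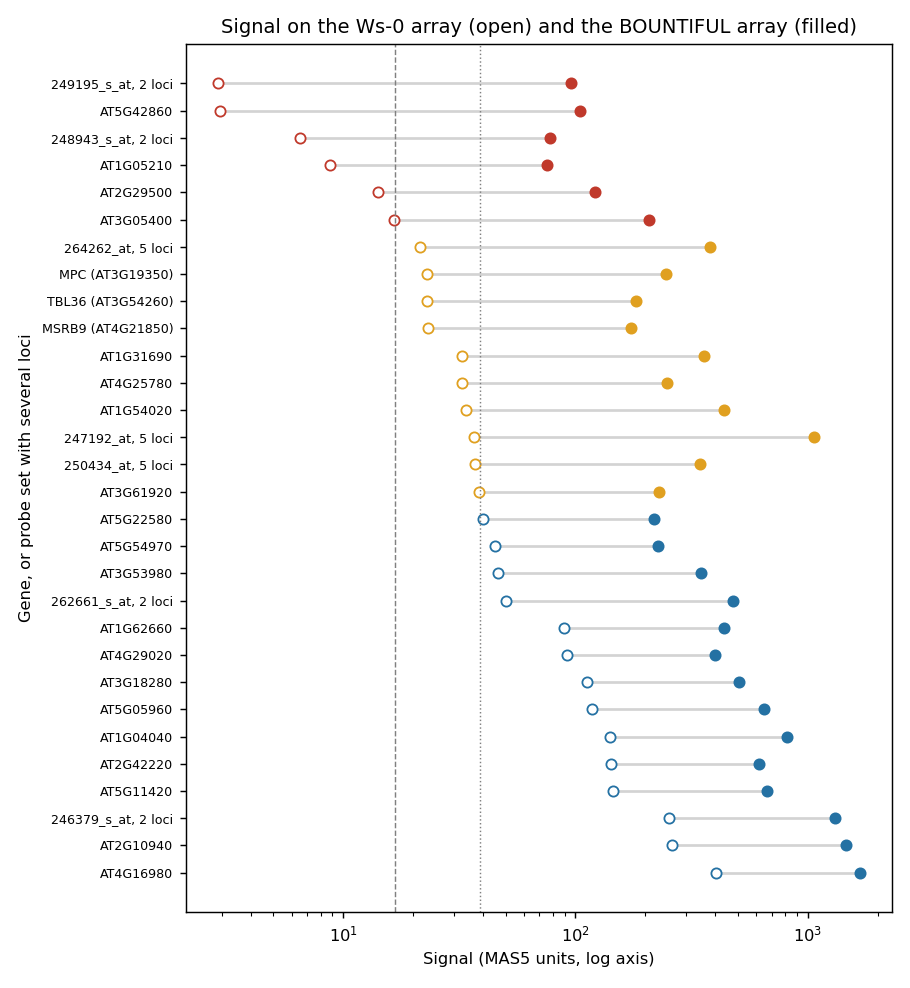
Signal in MAS5 units (x axis, log scale) on the Ws-0 array (open points) and the BOUNTIFUL array (filled points) for the 23 genes with a probe set of their own and the 7 probe sets assigned to several loci, ordered by Ws-0 signal and coloured by Ws-0 level. The dashed line is the background limit of 16.7 units and the dotted line the Ws-0 median of 39.0 units. Of these 30, 6 start near background, 10 are low and 14 are expressed in Ws-0.

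The 58 members without an annotated gene spanned the same levels, with 15 near background, 12 low and 31 expressed in Ws-0. Their log2 ratios had a median of 2.47, and that of the 23 named genes was 2.45. Probe set 258795_at had the highest log2 ratio of all members, with 581 units in BOUNTIFUL compared with 0.98 in Ws-0. It moved from the 4.37th percentile of the Ws-0 array to the 95.0th percentile of the BOUNTIFUL array and was at least 34.7-fold higher. The members without 1 gene that had the highest Ws-0 signals were 253040_at, with 2016 units against 395, and 246004_at, with 1684 against 290, and their log2 ratios were 2.33 and 2.50. What these probe sets encode was not analysed here.

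Relatives of the named members were counted from lists of loci and, after the values were seen, from shared symbols, over probe sets that passed the filter. Each family was looked at because it holds a member, so its counts are a description. Of the 5 copper amine oxidase probe sets, 2 were at least 2-fold higher, where 4.63% of all passing probe sets were. They were AT1G31690 and the next protein-coding gene in the gene table, AT1G31710, which had 112 units in BOUNTIFUL compared with 30.6 in Ws-0 (log2 ratio 1.65). AT3G43670, CuAO1 and AT2G42490 had -0.18, -0.36 and -0.82, and 2 of these stayed below 0 on the newer spikes and 1 on the older. AT1G31710 has a further probe set, 246602_at, with 16.5 and 13.5 units, which is in the range of the controls.

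Of the 7 ERD6-like transporter genes, 2 were at least 2-fold higher, beside 4.63% of all passing probe sets, and 4 lay between 0.13 and 0.70 as deposited. With either set of spikes set equal 3 were at least 2-fold higher, and the share of all passing probe sets was not counted there. AT5G18840 had 122 units against 40.9 (log2 ratio 1.41), while AT1G54730 had 87.8 against 137 (log2 ratio -0.60). In the CAP family 19 of 22 loci had a named probe set and 2 of these passed the filter, AT4G25780 and AT5G66590, the latter with a log2 ratio of 0.49.

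The TBL family had 9 named genes that passed, of which TBL36 alone was at least 2-fold higher on the deposited scale. With spikes set equal, 2 were so on the newer and 4 on the older. Those scalings moved the median of all passing probe sets to 0.27 and 0.45, so no reading is taken from the larger counts. After TBL36 the highest as deposited was TBL26, with 1804 units in BOUNTIFUL compared with 1010 in Ws-0 (log2 ratio 0.83). The lowest that passed was TBL38, at -0.78. TBL genes under the filter had log2 ratios on both sides of 0. The highest was TBL45, near background in Ws-0, with 67.5 units against 5.64, at least 4.03-fold higher. The lowest was TBL43, with 4.64 units in BOUNTIFUL and 19.3 in Ws-0 (log2 ratio -1.13). Of 4 methionine sulfoxide reductase genes, MSRB9 was at least 2-fold higher, and MSRB5 had 1405 units against 1044 (log2 ratio 0.43). Of the 12 loci listed as myrosinase-associated or glucosinolate breakdown genes, the annotation named a probe set for 1, AT1G54020. The other loci may have probe sets that are unnamed here. The list of jasmonate and ethylene defence genes, with 4 of 17 loci named, held no member, since PDF1.2b is left out by the rule and PDF1.2 lay just outside the limit.

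**Figure D5:**
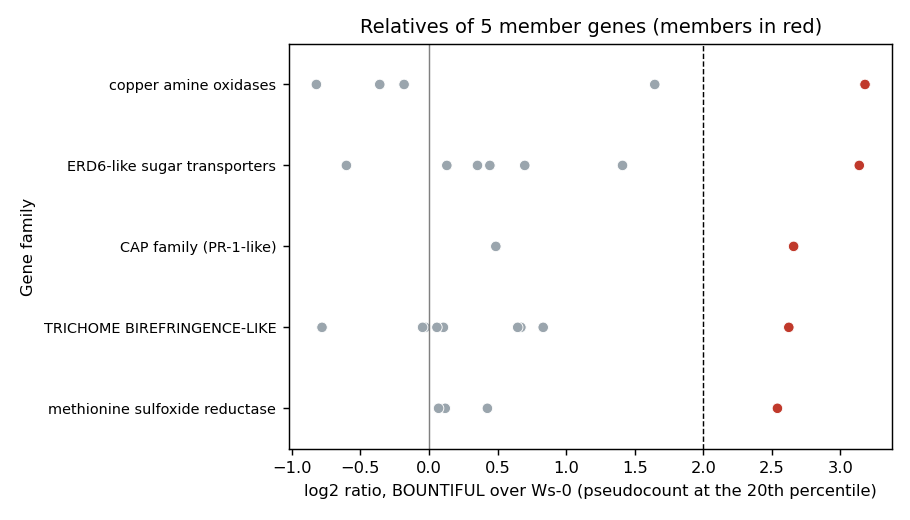
Log2 ratio of BOUNTIFUL over Ws-0 (x axis) of probe sets that passed the filter in 5 gene families (y axis), 1 point per probe set, with members of the 4-fold higher set in red and relatives in grey. The dashed line is the 4-fold limit, a log2 ratio of 2. Each family has 1 member past the limit, and the nearest relative is AT1G31710 at 1.65.

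The genes directly next to the 23 named members were read as well, as a description. The position of the tag was not used, so an effect of its enhancer on these genes was not tested. Of 46 such neighbours 25 were named on the array and 14 of these passed the filter. Among the 14, 1 was at least 2-fold higher, beside 4.63% of all passing probe sets. It was AT3G53990, next to the lipid transfer protein gene AT3G53980, with 613 units in BOUNTIFUL compared with 248 in Ws-0 (log2 ratio 1.28). None was 4-fold higher, and the log2 ratios ran from -0.82 to 1.28 with a median of 0.14. AT1G31710 entered with the mean over its probe sets, 0.92. Over the passing probe sets alone it had 1.65, and 2 of the 14 neighbours were at least 2-fold higher.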

How the data were processed

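Total RNA of 1 BOUNTIFUL and 1 Ws-0 sample was hybridised to Affymetrix ATH1 arrays. The authors deposited linear intensity signals per probe set, made with MAS5 per the submitters' processing notes, with its version not given in the sources used here. Means trimmed by 2% per end were 100.0 on either array, so both arrays had been scaled to the same trimmed mean. That alone does not make them comparable, and the mean log2 ratios of the spikes were -0.35 and -0.55. No further scaling was applied. The pseudocount of 7.77 units is the 20th percentile over both arrays, and the filter the median of mean signals, 39.9 units. With 1 array per group no test was run, no p-value was computed, and the number of arrays limits the precision. Names came from a 2016 annotation of the platform and the TAIR10.1 gene table. The members, gene lists and alternatives were chosen with earlier results of these data known, and roles were assigned after the values were seen. Every member with 1 gene is named. Of the members without 1 gene, the 2 highest in log2 ratio and the 2 highest in Ws-0 signal were to be named, and the histone, locus pair and limit probe sets were added after their values were seen. The gene table holds no descriptions, so the 16 families sought by words were searched in symbols and synonyms, where they held no member. Promoter motifs and protein features were planned and not analysed here. The script that picks probe sets past the limit was checked on simulated signals, which says nothing of the spread between plants. Python 3.11.15, numpy 2.4.6, pandas 2.3.3 and statsmodels 0.14.6 were used.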

Additional observations from a re-analysis of the deposited data

How the results depend on the processing

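No paired analysis was possible because a genotype has only 1 array here, and none could be left out. The count of 88 was 154 with the newer and 204 with the older hybridisation spikes set equal, 55 with a pseudocount at the 40th percentile and 57 with a 75th percentile filter. The first 2 scale every BOUNTIFUL signal by 1 factor, and the filter admits fewer probe sets. Under the other 6 alternatives the count was 81 to 121. The median log2 ratio of the members, each chosen at 2 or more, ran from 2.12 to 3.01 over all 10 alternatives. It covered 57 members with the 75th percentile filter, 81 without cross-hybridising suffixes and 88 otherwise. The median log2 ratio of all passing probe sets was -0.06 as deposited, 0.27 with the newer spikes and 0.45 with the older. With the background limit at the 20th percentile of Ws-0 signals, 7.71 units, 7 members were near background and 36 low, and at the 40th percentile, 24.6 units, 32 and 11. With the highest control of either array, 21.9 units, the counts were 26 and 17. Chosen after seeing the data, no filter gave 54 near background, and passing probe sets alone gave 2 neighbours at least 2-fold higher in place of 1. Signals in the range of the controls cannot be told from background.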
